A study of Arabidopsis thaliana with 12 samples.

Results

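The genes described here are 66 Arabidopsis thaliana genes known on these arrays by locus code alone, whose signal was higher after staurosporine than after water at every replicate number. They were chosen by measured values, in wild-type plants of ecotype Columbia 0. One group of 6 arrays came from plants kept in water for 4 h, and the other from plants kept in 2 µM staurosporine for 4 h. Both groups then received 25 mM ascorbate at pH 5.5 for another 4 h, so every plant had been given ascorbate, and plants without ascorbate were not analysed here. The labels name no tissue, no plant age and no growth condition, and are silent on whether each array stands for plants of its own.

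The array carries 3439 probes, of which 599 have a single annotated gene named only by its locus code. For 457 of these probes, which stand for 456 genes, every array was above 0, and the log2 ratio of staurosporine over water was taken at each of the 6 replicate numbers on quantile-normalized intensity. A gene became a member when all 6 ratios were above 0 and their mean was at least 0.5. The rule was met by 67 of the 457 probes; 1 of them, AT1G68660, is left out by the rule together with 3 other genes, which leaves the 66 (14.4% of 457). The same rule, applied to all 2584 probes above 0 on every array whatever their annotation, was met by 379 (14.7%), so the locus-named probes met it about as often as the array at large. Because these ratios chose the members, the values below describe them, and nothing about their direction is tested.

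Staurosporine is a microbial alkaloid that occupies the ATP site of protein kinases and blocks many of them at once. Plant protein kinases pass on signals of hormones, pathogens, light and redox state, and chloroplast kinases also phosphorylate the light-harvesting antenna. Ascorbate is the main water-soluble antioxidant of plant cells and feeds electrons to the peroxidases that remove hydrogen peroxide. Arabidopsis locus codes give a chromosome and an order along it; a gene without any other symbol has often been described only by the protein family its sequence belongs to. The gene table used here gives 65 of the members no descriptive name; the exception is AT5G58330, listed as NADP-dependent malate dehydrogenase. Roles given for 38 members below are general knowledge of the encoded protein or its family, not results, and for the other 28 no role is given. All 66 are protein-coding in that table, and no member lies within 10 protein-coding genes of another.

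Levels are normalized intensities, which have no absolute unit and depend on the probe, so ratios are taken only between groups for the same probe, and dim or bright describes the probe's signal, not the amount of transcript. Array medians of the deposited intensities ran from 0.252 to 0.419 after water and from 0.351 to 0.486 after staurosporine, and between 10.3% and 15.2% of an array's probes were listed at 0. Within a group, deviations from the group mean were correlated between arrays numbered 1 and 2, 3 and 4, and 5 and 6. These are called number pairs. The correlations were 0.24, 0.41 and 0.78 after water and 0.16, 0.57 and 0.69 after staurosporine, weakest at numbers 1 and 2 in both groups. The mean log2 ratio of a gene is followed by its SD over the 3 number pairs.

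The 66 mean ratios ran from 0.50 to 1.69 on the log2 scale, or 1.41-fold to 3.22-fold, with a median of 0.93 (1.905-fold). The median over all 457 locus-named probes was -0.01. A mean of at least 1 was reached by 29 members. Single ratios ran from 0.02 to 3.44. In 19 members the lowest of the 6 ratios was itself at least 0.5, whereas in 11 members it was under 0.1. In 33 of the 66 members every staurosporine array was above every water array, and in the other 33 the groups overlapped or touched; over all 2584 probes above 0 on every array, 8.48% were higher without overlap. With the 12 arrays taken as separate samples, 49 members passed as higher in limma, beside 11.1% of all 3439 probes. With the arrays of each number pair averaged, 0 members passed in limma, beside 0.116% of all probes (4 of 3439), and 45 members had an unadjusted p under 0.05 (319 of all probes were higher at that level). When limma took each number pair as a random effect, 12 members passed as higher, beside 3% of all probes, and with the replicate number as a block 55, beside 12.1%. The rule used this same contrast, so these counts are given as a description.

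**Figure D1:**
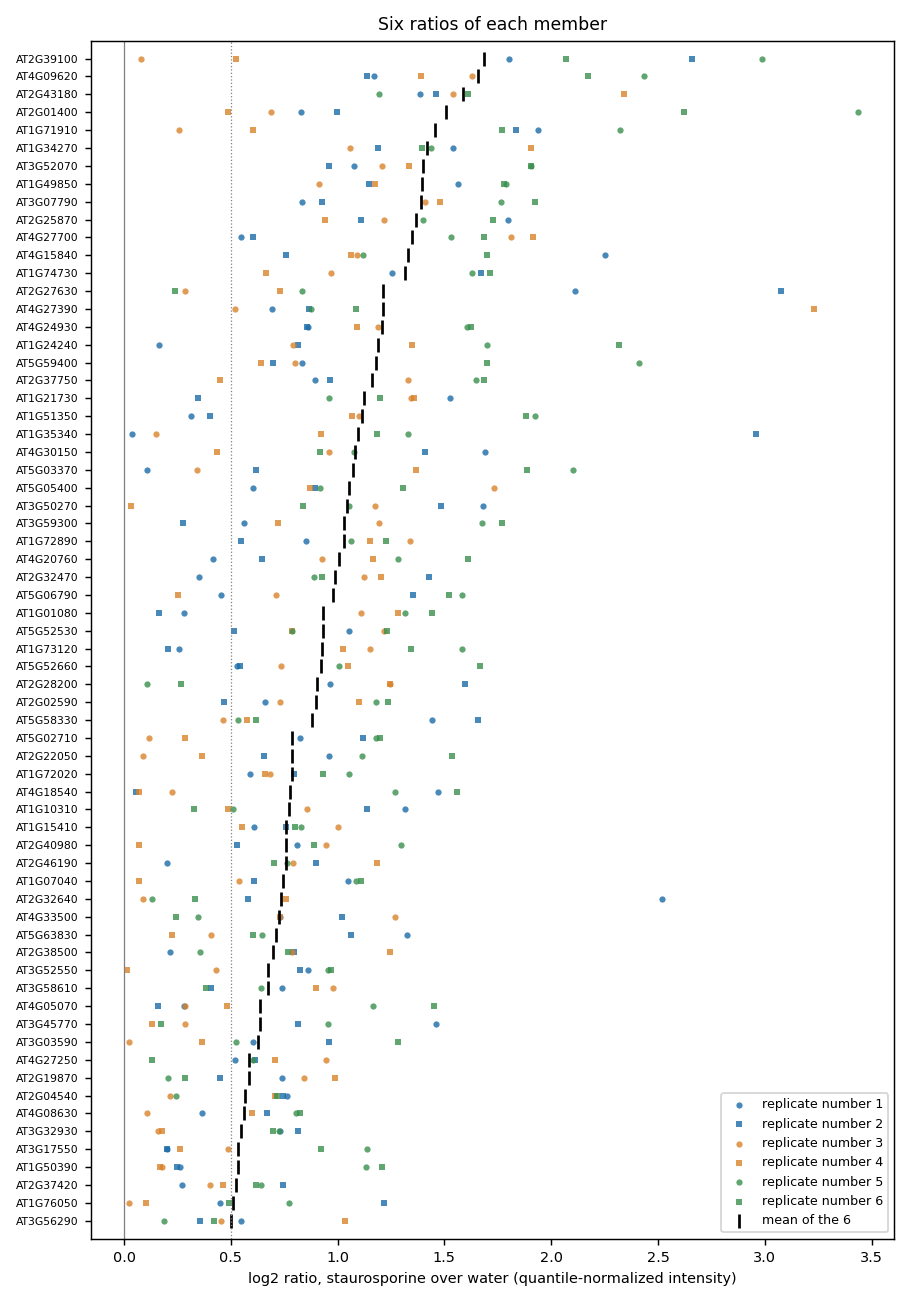
Log2 ratio of staurosporine over water for each of the 66 members, with 1 point for each replicate number (colours mark number pairs) and a black bar at the mean of the 6. All points lie above 0 by the rule; the dotted line is the minimum mean of 0.5, and the highest single ratio is 3.44 for AT2G01400.

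Of the members with a known role, 5 were grouped under the working chloroplast. AT1G01080, a chloroplast protein with RNA recognition motifs, was counted with the RNA group below. NADP-malate dehydrogenase (AT5G58330) uses surplus reducing power of the stroma to make malate for export, and is switched on by thioredoxin in the light. Its level was 0.177 to 0.546 over the 6 water arrays (median 0.288) and 0.425 to 0.815 over the 6 staurosporine arrays (median 0.589). Water numbers 3 and 4 were the high ones, above staurosporine numbers 1, 5 and 6, so the groups overlapped. Its mean ratio was 0.88 ± 0.58, from 1.55 at numbers 1 and 2 to 0.52 at numbers 3 and 4.

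Ketol-acid reductoisomerase (AT3G58610) makes a precursor of valine and isoleucine in the chloroplast. It ran from 0.646 to 0.766 after water (median 0.699) and from 0.951 to 1.28 after staurosporine (median 1.16). The groups did not overlap, and its mean ratio of 0.67 ± 0.23 was among the 4 most even over the 6 numbers. AT4G24930, a protein of the thylakoid lumen, ran from 1.18 to 1.81 after water (median 1.49) and from 3.17 to 3.65 after staurosporine (median 3.29). Its staurosporine arrays lay close together and well above every water array, with a mean ratio of 1.21 ± 0.38.

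RIQ2 (AT1G74730), a thylakoid membrane protein that affects grana stacking and non-photochemical quenching, had a mean ratio of 1.32 ± 0.44. Its 6 water arrays reached at most 0.396, and its 6 staurosporine arrays were at least 0.521. AT4G27700, a chloroplast protein with a rhodanese domain, had a mean ratio of 1.35 ± 0.68. Its water values fell into 1.60 and 1.74 at numbers 1 and 2 and 0.746 to 0.816 on the other 4 arrays, while all staurosporine arrays were between 2.15 and 2.97. Over the 5 genes the mean ratios ran from 0.67 to 1.35. In 4 of them the groups did not overlap, beside 33 of all 66 members and 8.48% of all 2584 probes above 0 on every array.

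Another 8 members encode proteins that handle RNA, ribosomes or organelle gene expression. AT4G09620, of the mTERF family of organelle nucleic-acid-binding proteins, had the highest mean ratio of the group, 1.66 ± 0.59. Its level was 2.97 to 4.17 after water (median 3.26) and 8.50 to 17.6 after staurosporine (median 9.18). The 2 highest staurosporine arrays were numbers 5 and 6, and the lowest staurosporine array was still above the highest water array. AT1G01080, a chloroplast protein with RNA recognition motifs, ran from 3.70 to 9.01 after water (median 4.66) and from 9.01 to 11.9 after staurosporine (median 9.96). Water numbers 1 and 2 were high, at 8.06 and 9.01, and the highest water array equalled the lowest staurosporine array. Its ratio was accordingly 0.22 at numbers 1 and 2, and 1.197 and 1.38 at the other number pairs.

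AT3G07790, related to the splicing-associated DGCR14 protein of animals, had a mean ratio of 1.39 ± 0.48, with water arrays up to 0.907 and staurosporine arrays from 1.46. AT4G30150, of the Urb2 family that in yeast serves the processing of ribosomal RNA precursors, had a mean ratio of 1.08 ± 0.43 with no overlap of the groups. AT1G24240, of the ribosomal protein L19 family, had 1.19 ± 0.77. Its staurosporine arrays ran from 0.101 at number 1 to 0.700 at number 5, and those of numbers 1 and 3 lay inside the water range, which reached 0.216. Mean ratios were 0.58 ± 0.33 for AT2G19870, an RNA methyltransferase of the SpoU type, and 0.51 ± 0.40 for AT1G76050, a pseudouridine synthase.

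AT2G25870, which carries a YbeY domain known from bacterial ribosomal RNA maturation, is a member through 1 of its 2 probes. On that probe the level was 0.180 to 0.349 after water and 0.516 to 1.15 after staurosporine, without overlap, and the mean ratio was 1.37 ± 0.25. The other probe of the gene had a mean ratio of -0.35 ± 0.45, with 5 of its 6 ratios below 0. The 2 probes therefore disagree on the direction for this gene, and which of them reports its transcript was not tested.

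Another 7 members have roles in signalling, protein turnover or defence. Of these, AT2G39100, a RING-domain protein of the kind that often attaches ubiquitin, had a mean ratio of 1.69 ± 1.21. That was the largest of all 66 with quantile normalization, but under some of the other scalings described below the gene no longer met the rule. Its level was 0.0649 to 0.203 after water (median 0.118) and 0.201 to 0.741 after staurosporine (median 0.3996). Numbers 3 and 4 contributed least, with a ratio of 0.30 against 2.23 and 2.53 at the other number pairs, and staurosporine number 3 fell just inside the water range. AT1G49850, also a RING-domain protein, had 1.39 ± 0.37, with its highest values of 3.73 and 2.99 at staurosporine numbers 5 and 6.

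AT2G27630, related to ubiquitin C-terminal hydrolases, had a mean ratio of 1.21 ± 1.196. It ran from 0.0288 to 0.225 after water (median 0.131) and from 0.174 to 0.341 after staurosporine (median 0.259). Its mean was carried by numbers 1 and 2, with a ratio of 2.59 where the water arrays were lowest, beside 0.51 and 0.54 elsewhere. AT1G35340, with a domain of LON proteases, had 1.10 ± 0.50. It ran from 0.0420 to 0.299 after water (median 0.222) and from 0.289 to 0.486 after staurosporine (median 0.383), and the lowest water value, at number 2, gave the largest of its ratios.

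Intracellular immune receptors of the nucleotide-binding class recognise pathogen effectors. AT5G05400, such a protein with leucine-rich repeats, had a mean ratio of 1.05 ± 0.28, and AT1G72890, one with a TIR domain, had 1.03 ± 0.29. In neither gene did the groups overlap: water arrays of AT1G72890 reached 0.538 and its staurosporine arrays started at 0.783. AT4G33500, a protein phosphatase of the 2C type, which counters kinases by removing phosphate, had 0.72 ± 0.38. Its lowest staurosporine array, 0.459 at number 4, lay just under the highest water array, 0.463.

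The 4 regulators of transcription and chromatin had mean ratios between 0.63 and 0.92. RVE6 (AT5G52660), a MYB-like relative of the clock proteins CCA1 and LHY, had 0.92 ± 0.40. Its level was 0.0616 to 0.166 after water (median 0.122) and 0.126 to 0.277 after staurosporine (median 0.205), and the groups overlapped. AT2G28200, a zinc finger protein of the C2H2 type, had 0.90 ± 0.62, with 0.19 at numbers 5 and 6 and 1.28 and 1.25 at the other pairs. AT5G63830, a HIT zinc finger protein, had 0.71 ± 0.44 and AT3G03590, with a SWIB domain found in chromatin remodelling complexes, 0.63 ± 0.38.

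Enzymes of metabolism and members of enzyme families made up 11 of the genes. AT1G34270, an exostosin-family glycosyltransferase-like protein, had a ratio of 1.42 ± 0.06, the smallest SD over number pairs among the 66. Over its 6 single ratios the SD was larger, 0.296, with 1.06 at number 3 and 1.91 at number 4. Its level was 0.219 to 0.293 after water (median 0.274) and 0.540 to 0.820 after staurosporine (median 0.741), so the lowest staurosporine array was well above the highest water array. AT2G43180, of the superfamily that holds isocitrate lyase and phosphoenolpyruvate mutase, had 1.59 ± 0.30. It ran from 0.0686 to 0.477 after water (median 0.337) and from 0.347 to 1.38 after staurosporine (median 0.946). Number 4 was its lowest array in both groups, and that staurosporine array lay inside the water range. AT1G15410, of the aspartate-glutamate racemase family, had the smallest SD over the 6 ratios (0.163) and a mean ratio of 0.76 ± 0.07. Its water arrays ran from 0.720 to 0.865 (median 0.763) and its staurosporine arrays from 1.11 to 1.49 (median 1.33).

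Both mitochondrial enzymes of fatty acid synthesis among the members had modest ratios and overlapping groups. AT2G04540, the mitochondrial ketoacyl synthase that extends the acyl chain, had 0.57 ± 0.16. AT3G45770, the enoyl reductase that completes each round of extension, had 0.64 ± 0.47, from 1.14 at numbers 1 and 2 to 0.21 at numbers 3 and 4. The remaining enzymes were AT5G03370 of the acylphosphatase family (1.07 ± 0.84), AT3G50270 of the HXXXD acyltransferases (1.04 ± 0.50) and AT3G17550 of the haloacid dehalogenase-like hydrolases (0.54 ± 0.44). Of 3 oxidoreductases with a Rossmann fold, AT4G20760 had 1.01 ± 0.46, AT1G10310 had 0.77 ± 0.41 and AT4G27250 had 0.59 ± 0.23. All 3 kept their staurosporine arrays above their water arrays, beside 33 of all 66 members and 8.48% of all 2584 probes above 0 on every array.

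There were 2 kinesins, motor proteins that walk on microtubules, among the members. AT1G21730 had a mean ratio of 1.12 ± 0.21 without overlap, with water arrays up to 0.241 and staurosporine arrays from 0.293. AT2G37420, of the kinesin-5 class that acts in the mitotic spindle, had 0.52 ± 0.10. It ran from 0.255 to 0.476 after water (median 0.326) and from 0.392 to 0.655 after staurosporine (median 0.454); number 4 was highest in both groups, and the ratio was even although the groups overlapped. AT1G51350, an armadillo-repeat protein, had 1.11 ± 0.77, from 0.36 at numbers 1 and 2 to 1.903 at numbers 5 and 6.

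**Figure D2:**
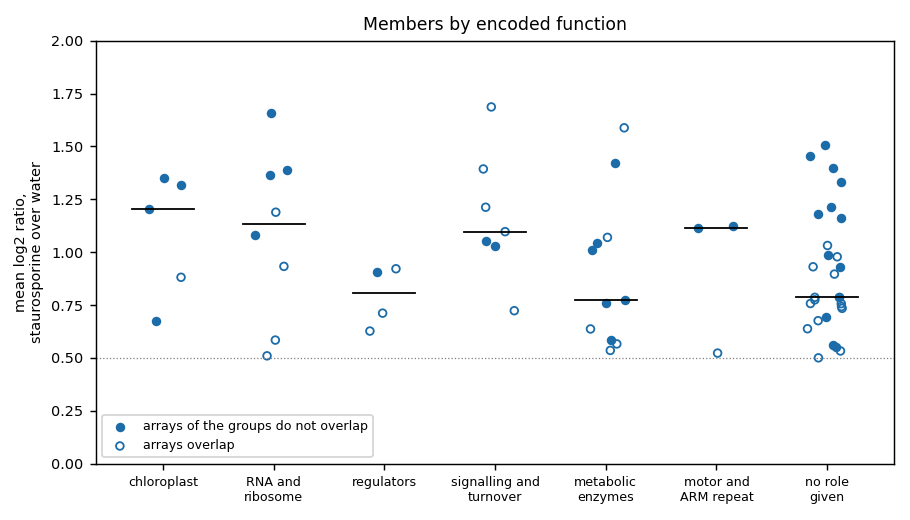
Mean log2 ratio of each member, grouped by encoded function, with filled points where the arrays of the groups did not overlap and a bar at each group's median. Median ratios run from 0.77 for metabolic enzymes to 1.21 for the 5 members of the chloroplast group. Each member is counted once, and the chloroplast protein AT1G01080 (0.93, arrays overlapping) is in the RNA group, so the order depends on this choice. The groups were formed from general knowledge of the proteins and were not tested against each other.

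The 28 members given no role had a median ratio of 0.79. In 14 of them the groups did not overlap, beside 33 of all 66 members and 8.48% of all 2584 probes above 0 on every array. AT2G01400 had 1.51 ± 1.33, the largest spread of any member. It ran from 0.0420 to 0.238 after water (median 0.197) and from 0.284 to 0.699 after staurosporine (median 0.419), and its ratio was 3.03 at numbers 5 and 6, where the water arrays were lowest. AT1G71910 had 1.45 ± 0.89. Its level was 0.207 to 0.680 after water (median 0.476) and 0.686 to 2.44 after staurosporine (median 0.949), so that the groups came close without overlapping. AT3G52070 had 1.40 ± 0.46, with 2.56 to 3.88 after water (median 3.56) and 6.74 to 9.80 after staurosporine (median 9.05), far apart on all arrays.

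AT1G73120, whose probe was the brightest among the members, had a mean ratio of 0.93 ± 0.63. It ran from 6.598 to 16.1 after water (median 8.95) and from 17.6 to 19.8 after staurosporine (median 19.2). Water numbers 1 and 2 were nearly as high as the staurosporine arrays, so the ratio was 0.23 there and 1.09 and 1.46 at the other pairs. AT1G72020 was even, at 0.79 ± 0.18, with 0.396 to 0.574 after water (median 0.4999) and 0.765 to 0.930 after staurosporine (median 0.825).

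Ratios above 1 were also found for AT4G15840 (1.33 ± 0.22), AT4G27390 (1.21 ± 0.58), AT5G59400 (1.18 ± 0.76), AT2G37750 (1.16 ± 0.44) and AT3G59300 (1.03 ± 0.65). Of these, only AT3G59300 had overlapping groups. The ratio of AT4G27390 was 3.23 at number 4, where its water array was lowest (0.0360), and 0.52 to 1.09 at the other numbers. Ratios near 0.9 to 1 belonged to AT2G32470 (0.99 ± 0.15), AT5G06790 (0.98 ± 0.54), AT5G52530 (0.93 ± 0.13) and AT2G02590 (0.90 ± 0.32). The pair means of AT2G32470 and of AT5G52530 lay close together, but their single ratios did not. These ran from 0.35 at number 1 to 1.43 at number 2 in AT2G32470. In AT5G52530 they ran from 0.52 at number 2 to 1.23 at number 6, and its arrays overlapped between the groups. Another 6 lay between 0.74 and 0.79, namely AT5G02710, AT2G22050, AT4G18540, AT2G40980, AT2G46190 and AT1G07040. In AT5G02710 alone of these 6 the groups did not overlap. Lower still were AT2G32640 (0.73), AT2G38500 (0.70), AT3G52550 (0.68), AT4G05070 (0.64), AT4G08630 (0.56), AT3G32930 (0.55) and AT1G50390 (0.53).

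The member nearest the minimum was AT3G56290, at 0.50 ± 0.22, with 0.459 to 0.602 after water (median 0.541) and 0.588 to 1.13 after staurosporine (median 0.695). AT1G76050 came next, with 0.218 to 0.579 after water (median 0.418) and 0.506 to 0.639 after staurosporine (median 0.571), followed by the kinesin AT2G37420. All 3 had overlapping groups. Just outside were AT4G38020, AT5G49800 and AT4G30740, with all 6 ratios above 0 and means of 0.41, 0.40 and 0.40. In all, 9 locus-named probes had 6 ratios above 0 with a mean under 0.5, and 29 had a mean of at least 0.5 with 5 of 6 ratios above 0.

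The number pairs did not contribute equally. The median ratio over the members was 0.80 at numbers 1 and 2, 0.82 at numbers 3 and 4 and 1.13 at numbers 5 and 6, whereas over all 457 locus-named probes it was -0.02, -0.06 and 0.08. Numbers 5 and 6 gave the highest of the 3 pair ratios in 37 of the 66 members, and did so in 39.0% of the 457 probes. The deposited medians of staurosporine numbers 5 and 6 were the highest of the 12 arrays (0.486 and 0.483), and the part of this in the ratios was not tested. Without numbers 5 and 6 the median over the members was 0.76, and 57 of the 66 had a mean of at least 0.5 over the 4 ratios left, all of which are above 0 by the rule. Within a number pair, ratios of the same member differed by a median of 0.24, and the means of its number pairs differed by a median of 0.49, so the 6 ratios of a gene act as fewer than 6 separate measurements.

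The variation among number pairs lay more often in the water arrays. In 45 of the 66 members (68.2%) the log2 level varied more among the 3 water pairs than among the 3 staurosporine pairs, which was so for 50.3% of the 457 probes. The median SD over pairs in the members was 0.38 after water and 0.24 after staurosporine, beside 0.32 and 0.34 over the 457 probes. The members thus stood above all probes after water and below them after staurosporine. The pattern was plain in genes with steady staurosporine arrays: in AT1G73120 the SD was 0.59 after water and 0.04 after staurosporine, and in AT1G51350 it was 0.65 and 0.12. AT4G09620 was the other way round, with 0.22 after water and 0.49 after staurosporine. The rule asks every staurosporine array to exceed its water partner, and whether it favours such genes was not tested. The deposited medians of water numbers 1 and 2 were the lowest of the 12 arrays (0.252 and 0.259). The part of this in the water spread was not tested.

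**Figure D3:**
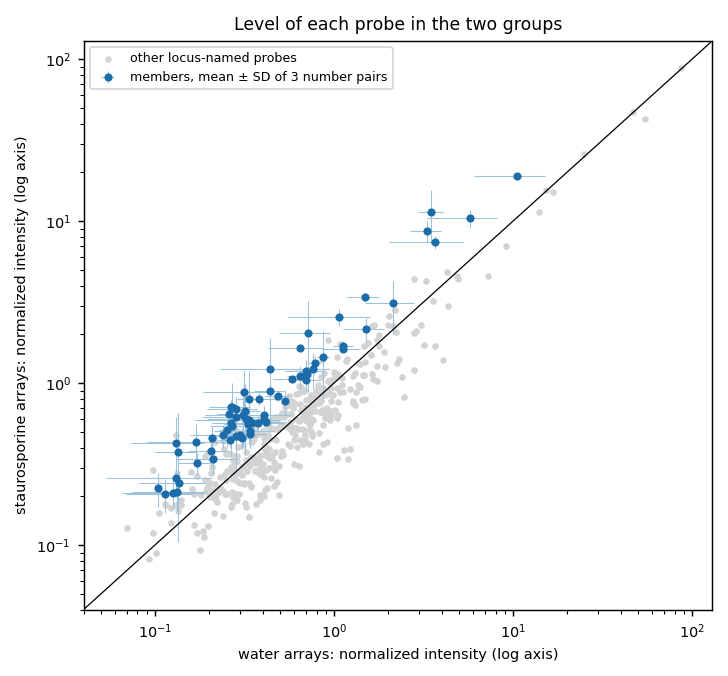
Normalized intensity after water (x axis, log scale) and after staurosporine (y axis, log scale) for the 66 members, as mean ± SD of 3 number pairs, and for the other locus-named probes above 0 on every array (grey, mean of 6 arrays). All members lie above the diagonal of equal level by the rule, and bars along the water axis are often the longer ones.

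The members' probes covered most of the signal range, with 6 of the 457 probes brighter than all of them and 18 dimmer. Their mean level over 12 arrays ran from 0.160 for RVE6 to 14.8 for AT1G73120 with a median of 0.492, and over the 457 probes from 0.0872 to 87.5 with a median of 0.538. With the probes divided into terciles by mean log2 level, the dim tercile of the 457 probes held 16 members (10.5%), the middle tercile 29 (19.1%) and the bright tercile 21 (13.8%). The groups did not overlap in 5 of the 16 dim members, 15 of the 29 middle ones and 13 of the 21 bright ones. Over all probes of these terciles, members included, the shares higher without overlap were 3.92%, 9.87% and 9.21%. The median SD over number pairs was 0.57 in dim members, 0.38 in middle ones and 0.44 in bright ones. In 2 members at least 1 array was at or under the floor used for values of 0 in the fit. The arrays were water number 2 of AT2G27630 (0.0288) and water number 4 of AT4G27390 (0.0360).

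How far a bright or dim member stood from 0 depended on how the arrays were scaled. Quantile normalization gave the bright members a median ratio of 0.79 and the dim ones 0.99. With arrays centred on their medians these were 0.48 and 1.19, and without further normalization 0.76 and 1.48. The same shift ran through all locus-named probes: the median of the bright tercile went from -0.04 to -0.36 with centring, and that of the dim tercile from 0.03 to 0.15. In all 66 members the mean ratio was above 0 under each of the 4 scalings. The full rule was met under all 4 by 39 of them, among these AT4G09620, AT1G34270, AT1G74730, AT4G24930, AT5G58330 and AT5G52660.

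With centring 18 members no longer met the rule, 13 of them from the bright tercile, including AT1G01080 (0.42), AT1G73120 (0.43), AT3G58610 (0.43) and AT1G15410 (0.48). AT3G17550 and AT1G50390 came close to 0 there, at 0.02 and 0.09. Without further normalization 16 did not meet it, and with cyclic loess 4. AT2G39100 did not meet it with centring or without further normalization, because not all 6 ratios stayed above 0. Its mean was also no longer the largest. AT2G43180 was above it with cyclic loess (1.682 against 1.679). AT4G27390 was above it with centring (1.857 against 1.836) and without further normalization (2.145 against 2.124). Relative to the median of the 457 probes under the same scaling, the members' median was 0.94 higher with quantile normalization, 0.92 with cyclic loess and 1.03 both with centring and without further normalization.

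**Figure D4:**
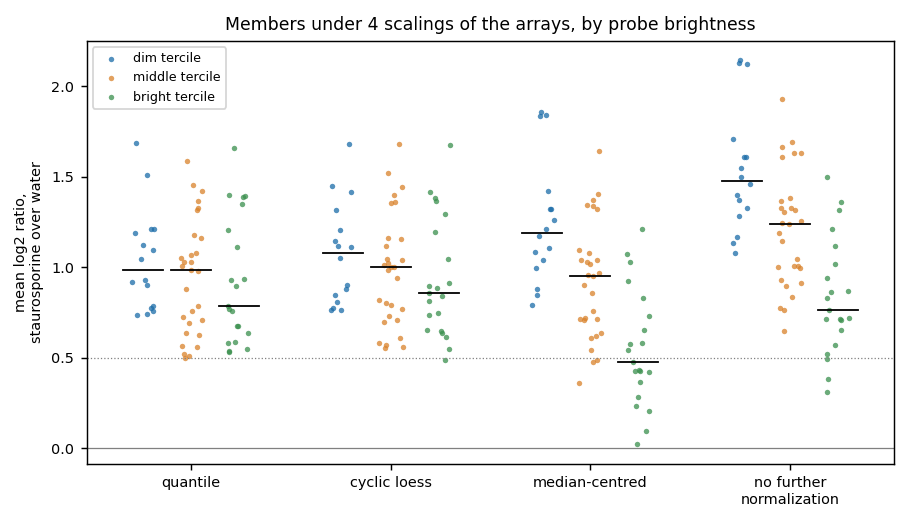
Mean log2 ratio of each member under 4 ways of scaling the arrays, split into the dim, middle and bright terciles of the 457 locus-named probes, with bars at the medians. All points are above 0; the bright tercile drops from a median of 0.79 with quantile normalization to 0.48 with median centring, and the dim tercile goes up from 0.99 to 1.19.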

How the data were processed

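The authors deposited linear intensities from 0 to 100, with 1 value for each probe on each array. Their background correction, scaling and spot averaging were not given in the sources used here. Groups and replicate numbers came from the sample titles. Intensities of the 12 arrays were quantile normalized with limma 3.58.1 in R 4.3.3. For the fit over all 3439 probes, values of 0, and values below an array's 1st percentile of positive values, were set to that percentile. In the fit this floor was reached by 2 members. The members' ratios used no floor, except those with cyclic loess, which were taken from values with the floor. The groups were compared 2-sided by lmFit and eBayes without a block, p-values were adjusted by Benjamini-Hochberg over all probes, and the threshold was 0.05. The fit was tested on simulated data whose arrays were drawn independently, so that test does not cover arrays that are alike in number pairs. Precision is limited by the number of arrays.

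Gene names came from the platform annotation, some of it old (692 probes with 1 gene, 870 with several, 1877 with none), matched by gene identifier to the TAIR10.1 gene table; all 66 members matched. That table has no descriptions, so the planned grouping by description words and the promoter motif search were not run, and functions were assigned from general knowledge instead. The members and lists were chosen with earlier results of these data known. Every member is named; array values are given for those with the largest ratios (6), highest levels (4), smallest and largest SD over the 6 ratios (4 each) and the 3 nearest the minimum, and, chosen after their values were seen, for examples of each function. Genome positions are left out, as the sources name no build for the probes.

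Deviations from the group means were correlated between same-numbered arrays of the groups, at 0.297 to 0.545 (0.158 to 0.273 over probes above 0 on every array). No comparison with differently numbered arrays is given, so whether the single numbers or only the number pairs match arrays across groups was not tested. The labels do not say what the numbers stand for. The labels do not say that replicates are separate plants, so a p-value reflects the spread between these arrays alone, possibly a technical one. Alternatives were other scalings, a replicate block, averaged number pairs, a random block, an offset for 0, a filter on probes, other minimums and arrays left out.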

Additional observations from a re-analysis of the deposited data

Results flagged for a closer look

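In each group of 6 arrays of each member, the highest and the lowest array were set against the rest by Dixon's ratio at its 95% critical value. Of 132 groups, 2 held an array that stood apart, where chance flags about 1 in 20 when the 6 arrays are independent. Arrays here are alike in number pairs, and a pair that stands apart together is not found this way. For AT2G02590, water number 2 had a normalized intensity of 0.891, with the next water array at 0.598. For AT4G27390, staurosporine number 4 had 0.337, with the next staurosporine array at 0.235.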

How the results depend on the processing

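The count of 66 members was 56 with arrays centred on their medians, 69 with cyclic loess, 71 without further normalization, 89 with the rule applied to 3 averaged number pairs, and 68 and 56 with minimum means of 0.4 and 0.6. It ran from 65 to 74 without 1 replicate number, and was 75 without numbers 5 and 6, an alternative chosen after seeing the data. Of the members, 50 met the rule without further normalization, 48 with centring and 62 with cyclic loess. Their median log2 ratio of 0.93 was 1.18 without further normalization, 0.89 with centring and 0.93 with cyclic loess, and 0.87 to 0.95 without 1 replicate number. Over all probes the median log2 change was -0.12 with quantile normalization, 0.19 without it, -0.10 with centring and -0.01 with cyclic loess. Over all probes, limma called 788 with 12 separate arrays, 809 with the replicate block, 191 with number pairs as a random block and 9 with number pairs averaged. The count with averaged pairs rests on 3 samples a group in place of 6. The other scalings, the offset and the filter gave 566 to 850, and leaving out 1 array 615 to 748. Of the members, 49 were called higher with 12 separate arrays and 55 with the replicate block, beside 11.1% and 12.1% of all probes. With the random block 12 were called and with averaged pairs 0, beside 3% and 0.116%. The number of arrays and their likeness in pairs limit the precision, and the median SD of the ratios over pairs was highest in members of the dimmest tercile, 0.57.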
